A study of Capra hircus with 29 samples.

Results

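The ubiquitin-conjugating (E2) enzymes were described in goat oocytes as every gene of the expression table whose symbol begins with UBE2 followed by a letter. This rule took 50 of the 21343 genes, which carry 34 symbols. It read symbols alone and no measured value. E2 enzymes that carry other names, such as CDC34, are not among the members and are given with the rest of the pathway.

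RNA was measured by RNA-seq in 29 oocyte samples of Ji'ning grey goats. Oocytes of a high fertility population are named HLO, HMO and HSO, the middle letter giving the follicle size (large, medium or small), and those of a low fertility population LLO, LMO and LSO. There were 5 samples in each group and 4 in HSO, whose replicates are numbered 1, 3, 4 and 5. The labels set high fertility at litters of more than 3 kids and low fertility at fewer than 2, whereas the study's methods place 3 kids in the high and 2 in the low population. Medium follicles measured 3 to 7 mm. Each sample held 2 to 3 oocytes, and the methods state for the high fertility population that oocytes of a stage from 15 goats were put together and then divided, so that p-values measure the spread between these samples and not between goats. No allele, drug or age is given for any group.

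Ubiquitin is a small protein that is joined to other proteins by an enzyme relay. An E1 enzyme activates it, an E2 carries it on a cysteine, and an E3 ligase brings the charged E2 to the substrate. Some E2s carry related modifiers such as NEDD8 or ISG15. In oocytes the pathway is known for the anaphase-promoting complex (APC/C), which must destroy cyclin B and securin for the meiotic divisions, and for the clearance of maternal proteins after fertilisation.

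Values are FPKM, in which fragment counts are divided by exon length and by the fragments mapped in the library. Levels of different genes are set side by side on this scale only. By the study's methods, oocyte mRNA was enriched with oligo(dT) beads, and whether this captured all genes alike was not tested. No read counts are in the table, so the depth behind a single value is unknown. The FPKM summed to between 222697 and 490048 per sample. LMO replicate 2 had the lowest sum, and the other samples lay at 347806 or above. The oocyte genes ZP3 (1406 FPKM ± 1130, SD, n = 29), ZP4 (424 ± 349) and GDF9 (312 ± 227) were high. Of the same list of 14 genes DDX4 averaged 3.22 FPKM, NOBOX 0.379 FPKM and NLRP5 0.303 FPKM, and 1 of 2 genes named DAZL was listed at 0 in every sample. AMH and AMHR2, which define granulosa cells, were listed at 0 in every sample, FSHR did not exceed 0.283 FPKM and CYP19A1 did not exceed 0.244 FPKM. The 13 granulosa and cumulus genes found in the table summed to between 5.98 and 55.0 FPKM, and STAR alone ran from 4.32 to 39.0 FPKM. Of the leukocyte genes CD14, TYROBP and CD74 were listed at 0 throughout and LCP1 averaged 3.01 FPKM. Of the theca and stroma genes DCN averaged 7.95 FPKM. The red blood cell gene ALAS2 did not exceed 0.464 FPKM.

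Goat oocytes held a broad set of E2 transcripts, and a few of them made up most of the family. Of the 50 members, 30 averaged more than 0.5 FPKM over all samples, 19 more than 10 FPKM and 9 more than 50 FPKM. In all 29 samples 21 members were above 0.5 FPKM. Another 20 members averaged under 0.5 FPKM, of which 8 were listed at 0 in every sample. For 33 members at least 4 samples exceeded 0.5 FPKM, the filter used for the tests, which 45.4% of all genes passed.

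**Figure D1:**
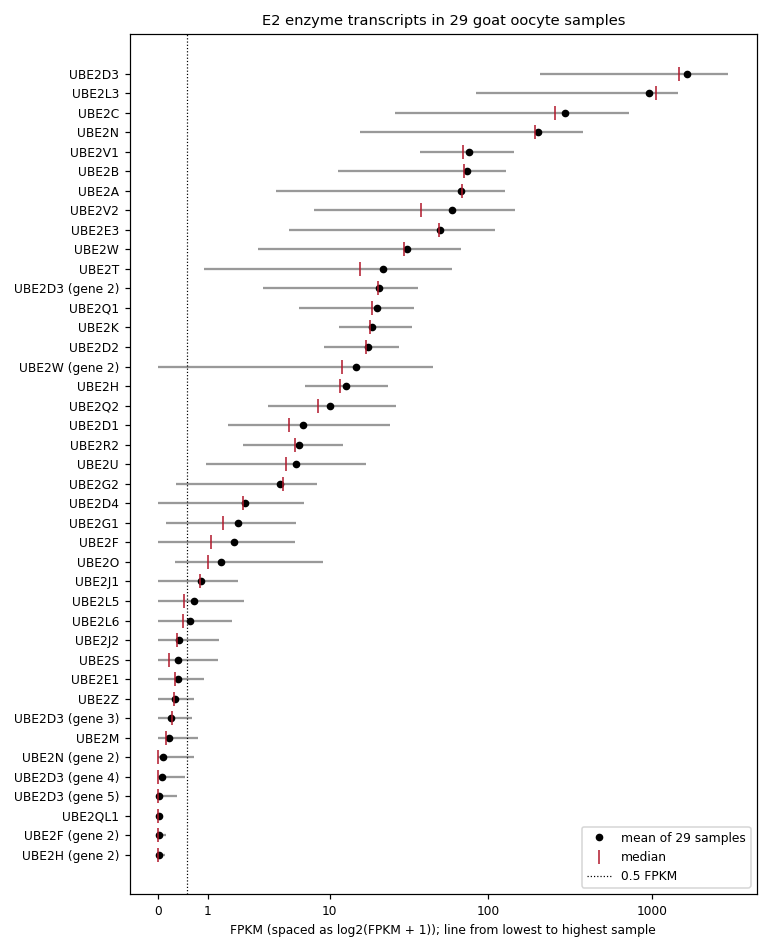
Level of 41 of the 42 E2 genes with a value above 0, in FPKM on an axis spaced as log2(FPKM + 1). Points are means and red ticks medians of 29 samples, and lines run from the lowest to the highest sample. UBE2D3 and UBE2L3 stand at the top with means of 1627 and 960 FPKM.

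UBE2D3 (ENSCHIG00000025487), a versatile E2 that works with many RING ligases, was the most abundant at 1627 FPKM ± 652 (SD, n = 29). UBE2L3 (ENSCHIG00000000405), which serves HECT and RING-between-RING ligases, followed at 960 FPKM ± 335. UBE2D3 was the first of the family in 29 of 29 samples and UBE2L3 the second in 28. UBE2D3 alone accounted for 44.1% ± 9.98 of the summed E2 FPKM and UBE2L3 for 25.7% ± 5.83, and the 5 members with the highest means together for 85.8% ± 6.25. The whole family made up 0.857% ± 0.188 of the FPKM sum. In LLO replicate 2 the family took 0.216% of the sum, whereas the next lowest sample stood at 0.490%.

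In HLO the 5 samples held 1288, 2111, 1880, 1354 and 948 FPKM of UBE2D3, and in LLO they held 1619, 208, 2904, 1498 and 887 FPKM. In HMO the values were 1698, 1290, 2687, 2602 and 1783 FPKM, and in LMO 1450, 491, 2053, 1244 and 1431 FPKM. In HSO they were 1332, 2604, 1414 and 1228 FPKM, and in LSO 1388, 1792, 2842, 1705 and 1454 FPKM. The high and low fertility samples overlapped at every stage, and LLO replicate 2 and LMO replicate 2 lay well under all others. Without these samples UBE2D3 averaged 1727 FPKM ± 848 (n = 4) in LLO in place of 1423, and 1545 FPKM ± 351 (n = 4) in LMO in place of 1334.

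The 4 other genes named UBE2D3 were far lower. The highest of them (ENSCHIG00000000192) averaged 21.0 FPKM ± 7.70, and UBE2D3 exceeded it by a ratio of 56.3 to 107 in single samples. The other 3 averaged under 0.5 FPKM. Near-identical copies can exchange reads, even where only uniquely matching reads are kept as here, so the division among genes of 1 symbol is uncertain. The same holds for the 9 symbols carried by several genes, which cover 25 of the 50 members.

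The sister enzymes of UBE2D3 were lower. UBE2D2 averaged 17.9 FPKM ± 4.79, UBE2D1 6.58 FPKM and UBE2D4 2.38 FPKM, and UBE2D3 exceeded UBE2D2 in 29 of 29 samples. UBE2E3, of a related class, averaged 50.7 FPKM ± 26.7, whereas UBE2E1 averaged 0.314 FPKM.

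UBE2L3 was steadier in the small follicle groups than in the large. In HLO it stood at 1126, 1048, 1044, 679 and 614 FPKM and in LLO at 1262, 84.3, 1277, 629 and 123 FPKM. HMO samples held 1081, 873, 1039, 1151 and 876 FPKM and LMO samples 1265, 358, 1432, 1165 and 979 FPKM. HSO samples held 1231, 1305, 1154 and 1088 FPKM and LSO samples 726, 1051, 1049, 1066 and 1056 FPKM. All 4 HSO samples were above all 5 LSO samples, and the groups overlapped at the other stages.

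UBE2C, the E2 that starts ubiquitin chains on substrates of the APC/C, was the third in 22 of 29 samples, at 296 FPKM ± 225. Its level differed widely between samples of a group. HLO samples held 631, 245, 269, 98.5 and 510 FPKM and LLO samples 641, 82.7, 36.5, 148 and 190 FPKM. HMO samples held 578, 256, 44.5, 357 and 342 FPKM and LMO samples 572, 56.2, 27.7, 320 and 441 FPKM. HSO samples held 728, 31.8, 297 and 647 FPKM and LSO samples 132, 130, 26.3, 218 and 536 FPKM. High and low samples occurred in every group, and the groups overlapped.

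UBE2S, which extends the chains that UBE2C begins, was far lower, with a mean of 0.316 FPKM. It was listed at 0 in 11 of 29 samples and its highest value was 1.31 FPKM in HMO replicate 2. UBE2C exceeded UBE2S in 29 of 29 samples.

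**Figure D2:**
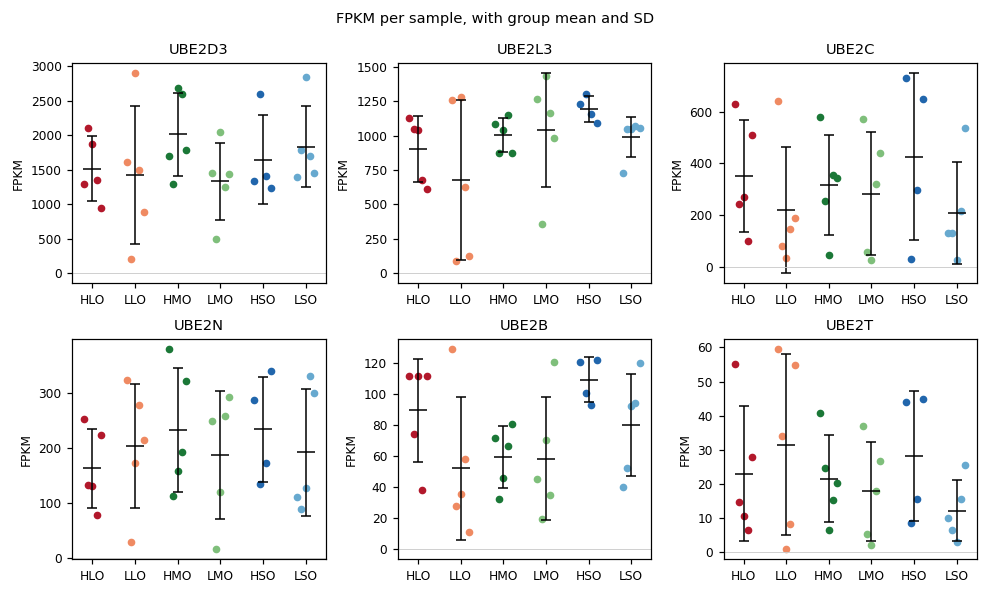
FPKM in each sample of UBE2D3, UBE2L3, UBE2C, UBE2N, UBE2B and UBE2T (vertical axes, each from its own 0), by group (horizontal axes). Bars give the group mean and SD. UBE2C ran from 26.3 to 728 FPKM with wide spread in each group, and UBE2L3 of HSO lay above LSO.

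UBE2N and its partners UBE2V1 and UBE2V2, which lack the catalytic cysteine, build the K63-linked chains used in DNA damage tolerance and signalling. UBE2N averaged 201 FPKM ± 99.3, from 15.9 in LMO replicate 2 to 380 in HMO replicate 1. UBE2V1 averaged 76.6 FPKM ± 27 and UBE2V2 60.1 FPKM ± 37.8. UBE2N exceeded UBE2V2 in 29 of 29 samples, whereas UBE2V1 exceeded UBE2V2 in 16 and was lower in 13.

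UBE2A and UBE2B are the mammalian forms of yeast RAD6, which mark PCNA and histone H2B with RAD18 and RNF20 as ligases. UBE2A averaged 68.2 FPKM ± 26.7 and UBE2B 73.6 FPKM ± 36.2. UBE2A was the higher in 14 samples and UBE2B in 15, so their order was not settled. The ratio of UBE2A to UBE2B ran from 0.151 to 3.01 with a median of 0.995.

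UBE2B had its highest group mean in HSO. HSO samples held 121, 101, 93.1 and 122 FPKM and LSO samples 40.1, 52.3, 92.5, 94.3 and 120 FPKM. In HLO it stood at 112, 74.0, 112, 37.9 and 112 FPKM and in LLO at 129, 27.5, 35.5, 57.9 and 11.3 FPKM. HMO samples held 71.5, 32.4, 45.9, 66.3 and 81.0 FPKM and LMO samples 45.3, 19.6, 70.2, 35.2 and 121 FPKM. The high and low fertility samples of UBE2B overlapped at every stage.

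UBE2T, the E2 of the Fanconi anaemia pathway that acts with FANCL, averaged 22.1 FPKM ± 17.4 and ran from 0.891 in LLO replicate 3 to 59.5 in LLO replicate 1. UBE2W, which joins ubiquitin to the N-terminus of proteins, averaged 31.3 FPKM ± 16.7. UBE2K, which builds K48-linked chains, was among the least variable at 18.9 FPKM ± 4.83.

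The E2s of NEDD8 and ISG15 were low. For NEDD8, UBE2F averaged 1.87 FPKM and UBE2M, its companion, 0.165 FPKM with 11 samples listed at 0. UBE2F exceeded UBE2M in 28 of 29 samples. UBE2L6, the E2 of ISG15, averaged 0.557 FPKM. UBE2Z, which is charged by UBA6, averaged 0.255 FPKM.

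The E2s of protein degradation at the endoplasmic reticulum were low as well, with UBE2G2 at 4.46 FPKM, UBE2G1 at 2.04 FPKM, UBE2J1 at 0.812 FPKM and UBE2J2 at 0.345 FPKM. UBE2R2, which extends chains with cullin ligases, averaged 6.20 FPKM. UBE2H, the E2 of the CTLH ligase, averaged 12.8 FPKM, UBE2Q1 20.3 FPKM and UBE2U 5.85 FPKM. UBE2O, which is both an E2 and a ligase, averaged 1.40 FPKM.

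The members listed at 0 in every sample were 2 genes named UBE2V1, 2 named UBE2F and 1 each named UBE2E3, UBE2Z, UBE2D1 and UBE2N. Each of these symbols other than UBE2Z had another gene that averaged more than 0.5 FPKM, and the other UBE2Z gene averaged 0.255 FPKM. The 12 members above 0 with means under 0.5 FPKM were UBE2J2, UBE2S, UBE2E1, UBE2Z, UBE2M, UBE2QL1, 3 genes named UBE2D3, and 1 each of those named UBE2N, UBE2F and UBE2H.

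**Figure D3:**
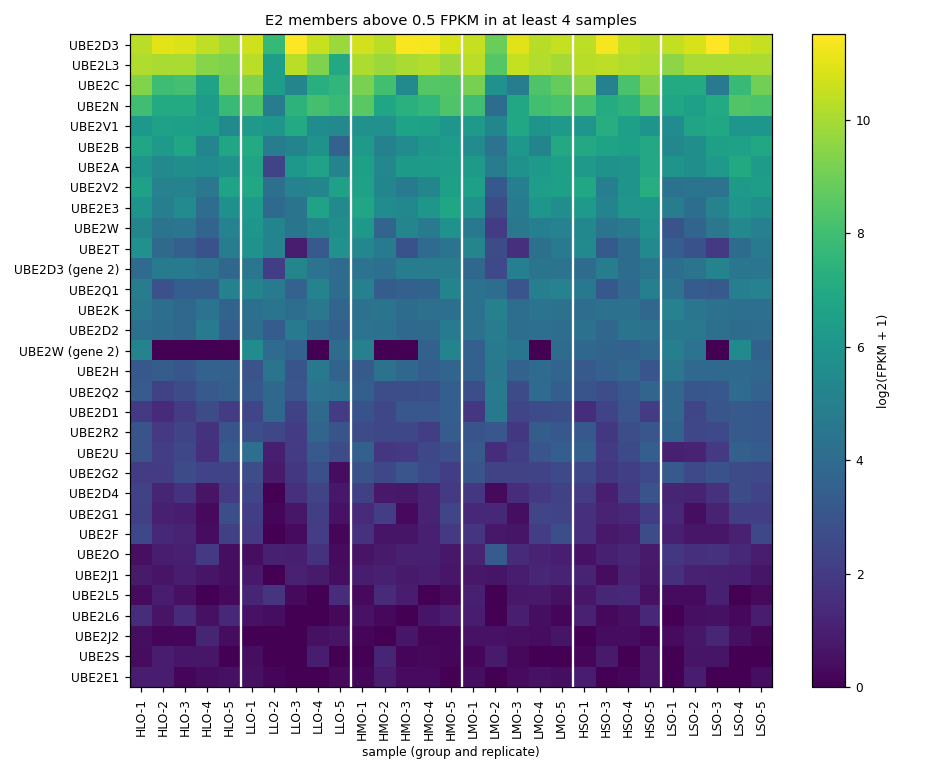
log2(FPKM + 1) of 32 of the 33 E2 genes that passed the filter (rows, highest mean at the top) in 29 samples (columns, white lines between groups). LLO replicate 2 and LMO replicate 2 are dark for several abundant members, and UBE2W gene 2 was listed at 0 in 9 samples.

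The median SD of the E2 genes within groups was 0.720 on the log2(FPKM + 1) scale, against 0.548 for all 9692 genes that passed the filter. The 2 sets differ in level, with median means of 12.8 and 2.67 FPKM, and the added 1 shrinks the SD of low genes. Genes of like level were not compared. UBE2C (SD 1.60), UBE2T (SD 1.39) and the other UBE2W gene (ENSCHIG00000015884, SD 2.08) were the most variable members, and UBE2J1 (0.29), UBE2J2 (0.31), UBE2E1 (0.32) and UBE2K (0.32) the least. Of the members that averaged more than 10 FPKM, UBE2K and UBE2D2 (0.38) had the lowest SDs. The share of the variation lying between groups had a median of 15.4% in the family and 16.8% over all genes.

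The samples with the most UBE2C were also compared with those highest in other members. Of the 7 samples with the highest UBE2C, 6 were among the 7 highest in UBE2T, 5 in UBE2V2 and 5 in UBE2U, whereas 0 were among the 7 highest in UBE2D3 or UBE2V1. Of the 7 samples highest in UBE2D3, 6 were among the 7 highest in UBE2V1. These pairs were picked after their values were seen and are a description of shared libraries, with no test. The samples also went with replicate number, and no label says what a number marks. The 7 highest in UBE2C all carried number 1 or 5. Replicate 3 of LLO, LSO, HMO, HSO and LMO was among the 7 highest in UBE2D3. In that order these samples held 2904, 2842, 2687, 2604 and 2053 FPKM of UBE2D3. Of UBE2C they held 36.5, 26.3, 44.5, 31.8 and 27.7 FPKM. HLO replicate 3 held 1880 FPKM of UBE2D3 and 269 FPKM of UBE2C.

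High and low fertility were then compared at each follicle stage by limma's moderated test on log2(FPKM + 1), with p-values adjusted over all genes tested by the Benjamini-Hochberg method. In large follicles 0 of 31 members passed an adjusted p of 0.05, as did 0% of all 8328 genes. At an unadjusted p of 0.05, 2 of 31 members passed, against 4.14% of all genes. In HLO 1 of them was higher, against 2.98% of genes, and 1 was lower, against 1.16%. No member was apart between the groups, against 0.432% of genes.

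UBE2L6 was listed at 1.80, 0.508, 1.55, 0.430 and 1.5 FPKM in HLO and at 0.456, 0.365, 0, 0 and 0.172 FPKM in LLO. These values lie near the 0.5 FPKM of the filter, which only HLO replicates 1, 2, 3 and 5 exceeded. UBE2L6, the 1 member counted as higher in HLO, thus entered the test through HLO alone. Its count and its difference are given as a description, not as a test result. The groups overlapped in a single HLO sample, and the difference was 0.81 on the log2 scale (SE 0.24, limma adjusted p = 0.828). The other UBE2W gene was listed at 34.4 FPKM in HLO replicate 1 and at 0 in the other 4 HLO samples, while LLO samples held 45.5, 15.3, 11.3, 0 and 15.7 FPKM. Its difference was -2.42 (SE 1.10, limma adjusted p = 0.828), and the groups overlapped. Its samples above 0.5 FPKM were HLO replicate 1 and LLO replicates 1, 2, 3 and 5, so it entered the test mainly through LLO.

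The abundant members had wide intervals at this stage. The difference of UBE2L3 was 1.12 with a 95% interval from -0.52 to 2.75, that of UBE2C 1.04 (interval -0.57 to 2.65) and that of UBE2D3 0.47 (interval -0.91 to 1.84). Over the 31 members the median difference was 0.05, against -0.09 over all genes. For 4 members the interval lay within 1 log2 unit of 0, as it did for 27.7% of all genes.

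In medium follicles 0 of 30 members passed the adjusted threshold, against 0.0715% of all 8390 genes tested with limma. At an unadjusted p of 0.05 the count was also 0 of 30, against 8.67% of genes, and the groups of no member were apart, against 1.70%. UBE2D3 averaged 2012 FPKM ± 607 (n = 5) in HMO and 1334 FPKM ± 561 (n = 5) in LMO, a difference of 0.68 (interval -0.16 to 1.51). UBE2E3 averaged 74.0 FPKM ± 32.6 in HMO and 41.4 FPKM ± 25.0 in LMO. The median difference of the members was 0.02, against -0.07 over all genes. For 10 of the 30 members the interval lay within 1 log2 unit of 0, as it did for 45.8% of all genes.

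In small follicles 0 of 30 members passed the adjusted threshold, against 0.0119% of all 8376 genes tested with limma. At an unadjusted p of 0.05, 3 of 30 members passed, against 4.41% of genes. In HSO 1 of them was higher, against 2.04% of genes, and 2 were lower, against 2.36%. UBE2D1 stood at 1.81, 3.91, 7.31 and 2.96 FPKM in HSO and at 13.1, 4.26, 7.43, 8.24 and 7.87 FPKM in LSO, with a difference of -0.92 (SE 0.39, limma adjusted p = 0.880). UBE2O stood at 0.455, 0.992, 1.35 and 0.760 FPKM in HSO and at 2.61, 2.0, 2.08, 1.44 and 0.892 FPKM in LSO, with a difference of -0.56 (SE 0.25, limma adjusted p = 0.880). Both genes were lower in most HSO than in most LSO samples, and the groups overlapped. UBE2L5 was listed at 0.623, 1.34, 1.53 and 0.443 FPKM in HSO and at 0.281, 0.247, 1.01, 0 and 0.212 FPKM in LSO, with a difference of 0.56 (SE 0.24, limma adjusted p = 0.880). Its samples above 0.5 FPKM were HSO replicates 1, 3 and 4 and LSO replicate 3, so it entered the test mainly through HSO.

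UBE2L3 was the single member, of 30, whose HSO and LSO samples did not overlap, against 2.05% of all genes and 0.752% in the same direction. Its lowest HSO sample held 1088 FPKM and its highest LSO sample 1066 FPKM. The difference was 0.28 (SE 0.22, interval -0.21 to 0.77, limma adjusted p = 0.880). UBE2C averaged 426 FPKM ± 322 (n = 4) in HSO and 208 FPKM ± 195 (n = 5) in LSO, and its interval, from -1.31 to 3.08, was the widest among the 4 most abundant members. Over the 30 members the median difference was 0.07, against -0.01 over all genes.

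**Figure D4:**
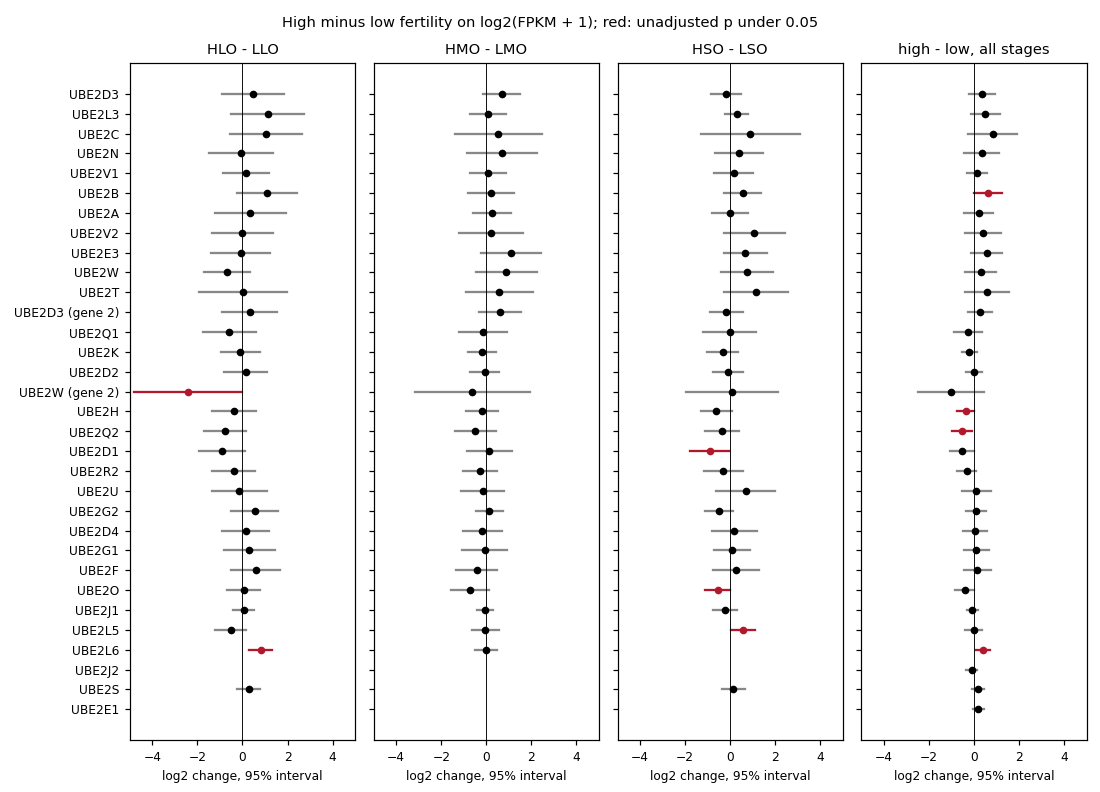
Difference of high minus low fertility on the log2(FPKM + 1) scale with its 95% interval (horizontal axes) for the E2 genes tested (rows, 1 gene not drawn), in large, medium and small follicles and over all stages. Red marks an unadjusted p under 0.05, which 2, 0, 3 and 4 members reached. No member passed after adjustment.

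Over all stages, with follicle size as a covariate, 14 high fertility samples were compared with 15 low fertility samples. After adjustment 0 of 33 members passed, against 0.0103% of all 9692 genes tested with limma. At an unadjusted p of 0.05, 4 of 33 members passed, against 9.99% of genes. In the high fertility population 2 of them were higher, against 3.39% of genes, and 2 were lower, against 6.59%.

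UBE2Q2 had a lowest, median and highest value of 3.63, 7.53 and 12.6 FPKM in high fertility samples and of 5.21, 11.2 and 26.7 FPKM in low fertility samples. The ranges overlapped from 5.21 to 12.6 FPKM, and the difference was -0.54 (SE 0.22, limma adjusted p = 0.439). UBE2L6 ran from 0 to 1.80 FPKM with a median of 0.538 in high fertility samples. In low fertility samples it ran from 0 to 0.954 with a median of 0.353, with a difference of 0.38 (SE 0.15, limma adjusted p = 0.438). Its group means were 1.16 FPKM in HLO and 0.198 in LLO, and 0.428 in HMO and 0.461 in LMO. They were 0.773 FPKM in HSO and 0.366 in LSO. These values lie near the 0.5 FPKM of the filter, which the gene did not pass in small follicles.

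UBE2B had a lowest, median and highest value of 32.4, 87.0 and 122 FPKM in high fertility and of 11.3, 52.3 and 129 FPKM in low fertility samples, with a difference of 0.62 (SE 0.30, limma adjusted p = 0.495). UBE2H had values of 7.38, 10.1 and 19.4 FPKM against 6.78, 14.1 and 23.8 FPKM, with a difference of -0.38 (SE 0.19, limma adjusted p = 0.499). For UBE2B and UBE2H the 2 populations overlapped over much of their range. The most abundant member, UBE2D3, differed by 0.34 (interval -0.24 to 0.92) and UBE2C by 0.82 (interval -0.29 to 1.92).

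For 24 of the 33 members the interval over all stages lay within 1 log2 unit of 0, as it did for 83.3% of all genes. The median difference was 0.10 in the family and -0.04 over all genes. Of the members 21 lay above 0 and 12 below, and of all genes 42.8% lay above 0.

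**Figure D5:**
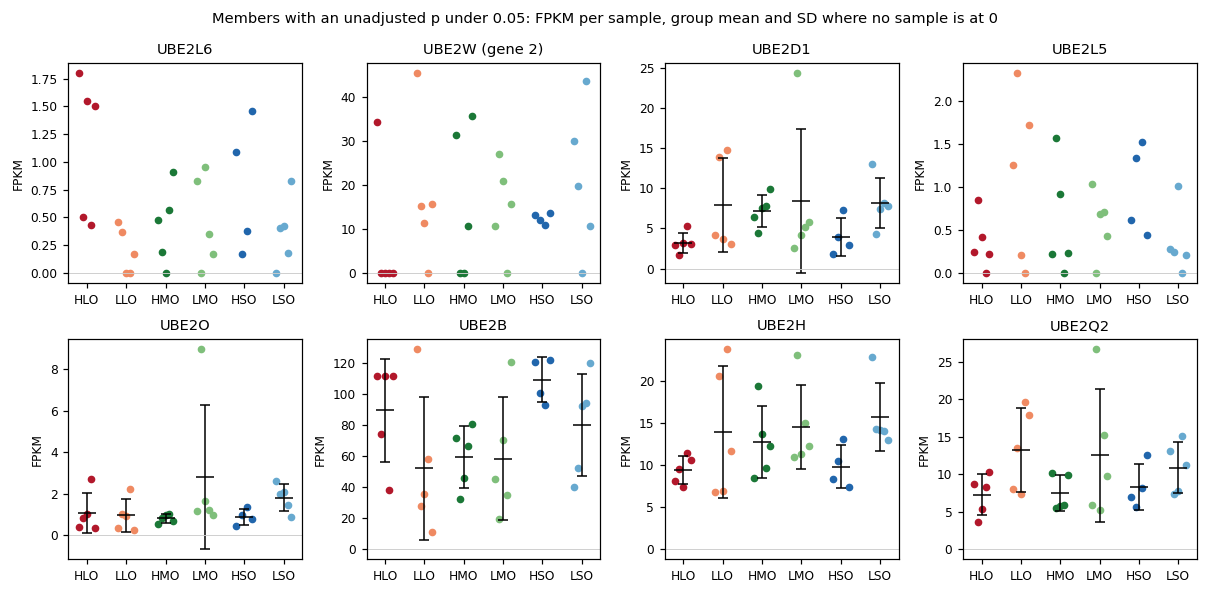
FPKM in each sample (vertical axes) of the 8 E2 genes that had an unadjusted p under 0.05 in a fertility comparison, by group (horizontal axes). Bars give the group mean and SD for genes with no sample at 0, and none of the genes passed after adjustment. UBE2L6 of HLO reached 1.80 FPKM, and UBE2W gene 2 was at 0 in 4 HLO samples.

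The 3 follicle stages were compared with fertility as a covariate by limma's F-test. After adjustment 0 of 33 members passed, as did 0% of all genes, and at an unadjusted p of 0.05 the counts were 0 of 33 and 1.66%. In the pairwise contrasts of the same model no member passed after adjustment. Between large and small follicles 3 members had an unadjusted p under 0.05, against 3.84% of genes, all lower in large follicles.

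UBE2L3 averaged 789 FPKM ± 437 (n = 10) in large, 1022 FPKM ± 289 (n = 10) in medium and 1081 FPKM ± 161 (n = 9) in small follicles, with a large minus small difference of -0.87 (SE 0.39, limma adjusted p = 0.996). UBE2G2 averaged 3.47 FPKM ± 1.92, 4.96 FPKM ± 1.40 and 5.01 FPKM ± 1.61, with a difference of -0.56 (SE 0.26, limma adjusted p = 0.996). UBE2J1 differed by -0.30 (SE 0.14, limma adjusted p = 0.996).

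All 3 differences shrank without LLO replicates 2 and 5, the samples in which the E2 genes took the lowest shares of the FPKM sum. In these samples UBE2L3 stood at 84.3 and 123 FPKM, UBE2G2 at 0.792 and 0.284 FPKM and UBE2J1 at 0 and 0.347 FPKM. With both left out, the differences were -0.23 for UBE2L3 (SE 0.23), -0.17 for UBE2G2 (SE 0.20) and -0.16 for UBE2J1 (SE 0.13). With either left out no unadjusted p was under 0.05 in limma. Both samples were low among large follicles and were picked after the data were seen, so the differences had to shrink without them. No other sample was left out of this contrast, so whether others weigh as much was not tested.

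Between large and medium follicles UBE2G2 alone had an unadjusted p under 0.05, against 2.40% of genes, and between medium and small follicles UBE2B alone did, against 0.485%. UBE2B averaged 58.8 FPKM ± 29.4 in medium and 92.9 FPKM ± 29.3 in small follicles, a difference of -0.77 (SE 0.37, limma adjusted p = 1.0). UBE2C averaged 285, 299 and 305 FPKM in large, medium and small follicles.

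Whether the fertility difference itself differed between stages was tested by limma's F-test over the interaction contrasts. After adjustment 0 of 33 members passed, as did 0% of all genes, and at an unadjusted p of 0.05 the counts were 0 of 33 and 7.89%.

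The genes that act before and after the E2s were read from a list of 93 genes of the table, covering E1 enzymes, modifiers, E2s with other names, the APC/C and E3 partners. Of the genes that encode ubiquitin, UBB averaged 1779 FPKM ± 1076 and RPS27A 966 FPKM ± 321. UBA1, the main E1 of ubiquitin, averaged 11 FPKM ± 4.45. For the modifiers NEDD8 and ISG15 the E2 can be set beside its own modifier and E1 as levels in FPKM. NEDD8 averaged 852 FPKM, against 1.87 FPKM of UBE2F and 0.165 FPKM of UBE2M. Of the NEDD8 E1 subunits, NAE1 averaged 19.1 FPKM and UBA3 3.35 FPKM. ISG15 averaged 0.0183 FPKM and its E1, UBA7, 0.0775 FPKM, beside 0.557 FPKM of UBE2L6.

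The APC/C genes were uneven. ANAPC15 averaged 1055 FPKM and ANAPC11, its RING subunit, 153 FPKM, whereas ANAPC2, the cullin subunit, averaged 0.199 FPKM. Its activator CDC20 averaged 15.9 FPKM and its inhibitor FBXO43, also called EMI2, 11.5 FPKM. RBX1, the RING subunit of cullin ligases, averaged 930 FPKM. CDC34, an E2 of cullin ligases, averaged 2.52 FPKM. RAD18 averaged 19.5 FPKM, and the higher of 2 genes named FANCL ran from 1.57 to 64.7 FPKM.

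None of the 69 to 72 list genes tested passed after adjustment in any of the 6 comparisons. At an unadjusted p of 0.05 with limma, 1 of 70 passed in large follicles, 6 of 71 in medium follicles and 2 of 69 in small follicles, against 4.14%, 8.67% and 4.41% of all genes. Of 72 genes 6 passed over all stages, 2 between stages and 4 in the interaction, against 9.99%, 1.66% and 7.89%. UBA1 differed by -0.67 in medium follicles (SE 0.30, limma adjusted p = 0.563) and by -0.47 over all stages (SE 0.18, limma adjusted p = 0.436). ANAPC13 differed by 1.19 in small follicles (SE 0.51, limma adjusted p = 0.880) and by 0.60 over all stages (SE 0.27, limma adjusted p = 0.476). The large follicle gene was 1 of 2 named UBE4A, a chain-extending ligase, with a difference of 2.11 (SE 0.78, limma adjusted p = 0.828). ANAPC10, of which 2 genes were among the 6 in medium follicles, differed by 1.31 for the gene that averaged 188 FPKM (SE 0.44, limma adjusted p = 0.358).

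Beside the comparisons of UBE2L6 and the other members, the granulosa gene STAR differed by 0.96 in large follicles (SE 0.43, limma adjusted p = 0.828) and by -1.04 in medium follicles (SE 0.31, limma adjusted p = 0.265). The summed granulosa and cumulus genes ran from 18.9 to 32.4 FPKM in HLO and from 7.60 to 18.8 in LLO, from 10.4 to 17.8 in HMO and 21.8 to 51.9 in LMO, and from 14.4 to 29 in HSO and 5.98 to 55.0 in LSO. Their part in the E2 values was not tested.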

How the data were processed

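The authors aligned the RNA-seq reads to the goat genome, retained uniquely matching reads, removed duplicates with picard and deposited FPKM per gene from Cufflinks 2.2.1 with Ensembl annotation. The aligner and genome build are not given in the sources used here, so no coordinates are printed. Sample names set which column belonged to which sample, and 1 column of per-sample values without a match was not used. Of the 21343 genes, 410 had no symbol. The members and the pathway and marker lists were chosen with earlier results of these data known. From the deposited FPKM, log2(FPKM + 1) was computed, genes above 0.5 FPKM in at least 4 compared samples were kept, and limma's moderated test with a trend was fitted across all of them, with Benjamini-Hochberg adjustment over all genes tested. Levels have no test. Some genes of the family and lists enter the counts and are not reported here. Values were given for the 12 members with the highest means, those with an unadjusted p under 0.05, those with a textbook role in oocytes, and those under 0.5 FPKM. Levels over all samples were also given for other members, such as UBE2K and UBE2R2. Because only FPKM were used, no counting intervals were computed. Alternatives were a pseudocount of 0.1, no filter, median-of-ratios factors, array weights, a replicate block, 1 fit over all samples, uniquely named members and each sample left out. The fits were tested on simulated data. Python 3.11.15 (numpy 2.4.6, pandas 2.3.3, scipy 1.17.1, matplotlib 3.10.9) and R 4.3.3 (limma 3.58.1) were used.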

Additional observations from a re-analysis of the deposited data

Results flagged for a closer look

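In 12 of 144 sets of 24 members and 6 groups, a single sample lay far from the other samples of its group by Dixon's criterion on the log2(FPKM + 1) scale, which chance alone meets in about 1 of 20 groups. LMO replicate 2 held 4 of the 12. UBE2L3 stood there at 358 FPKM against 979 to 1432 in the other LMO samples, and UBE2W at 3.03 FPKM against 23.5 to 33.6. UBE2D2 was high there at 28 FPKM against 16.3 to 19.1, as was UBE2O at 8.95 FPKM against 0.966 to 1.63. The same sample had the lowest FPKM sum.

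In LLO replicate 2 UBE2N was at 28.2 FPKM against 173 to 323 in the other LLO samples. In LSO replicate 1 UBE2L3 was at 726 FPKM against 1049 to 1066, and UBE2H at 22.9 FPKM against 13.0 to 14.3. In LSO replicate 5 UBE2F was at 4.57 FPKM against 0.610 to 1.10. In HMO replicate 2 UBE2A was at 39.5 FPKM against 76.4 to 93.2, and UBE2S at 1.31 FPKM against 0 to 0.171. The other UBE2W gene was at 34.4 FPKM in HLO replicate 1, with the other HLO samples at 0, and it was listed at 0 in LMO replicate 4, with the other LMO samples at 10.7 to 27 FPKM.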

How the results depend on the processing

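No E2 gene passed an adjusted p of 0.05 in limma in any alternative other than array weights, a weighting of samples by how well they match their group, under which 1 did in medium follicles (UBE2F, -1.18, adjusted p = 0.0425), against 12.1% of all genes, and 1 over all stages (UBE2Q2, -0.55, adjusted p = 0.0495), against 7.13%. With these weights the median of all genes moved to -0.26, -0.32 and -0.16 in large follicles, medium follicles and over all stages, and that of the members to -0.06, -0.17 and -0.10. The counts at an unadjusted p of 0.05 were less stable. With array weights they became 5 in large follicles, 7 in medium follicles, 2 between stages and 1 in the interaction, against 16.5%, 39.8%, 8.43% and 16.7% of all genes. With uniquely named members the large follicle count was 1. With median-of-ratios factors the medium follicle count was 1 and the interaction count 1. With 1 fit over all samples the medium and small follicle counts were 1 and 0. Without a filter the stage count was 1, and with a pseudocount of 0.1 the interaction count was 1. The cause was not tested. Each sample left out in turn gave 0 to 3 members in large follicles, 0 to 1 in medium follicles, 0 to 3 in small follicles, 2 to 6 over all stages, 0 to 3 between stages and 0 to 2 in the interaction, and 0 after adjustment in every case. The shares over all genes in the runs with a sample left out are not reported here. The large follicle count was 0 without HLO replicate 2, 3 or 5, and 1 without HLO replicate 1 or 4 or LLO replicate 2 or 3. The small follicle count was 0 when HSO replicate 1, or replicate 1, 3 or 4 of LSO, was left out, and 1 when HSO replicate 5, or replicate 2 of LSO, was. The count over all stages was 2 without replicate 1 or 2 of HLO, replicate 1 of HMO, replicate 1 or 5 of HSO, replicate 2 of LLO or LMO, or replicate 1 of LSO. The number of members above 0.5 FPKM on average was 30 whichever sample was left out, a check added after the data were seen. Of the values named with an unadjusted p under 0.05, UBE2L6 in large follicles exceeded 0.05 in 0 of 12 alternatives and UBE2Q2 over all stages in 0 of 34. The same count was 1 of 34 for UBE2L6 over all stages, 10 of 16 for the other UBE2W gene, 8 of 15 for UBE2D1, 7 of 11 for UBE2L5, 11 of 15 for UBE2O, 20 of 34 for UBE2B and 22 of 34 for UBE2H, and no direction reversed. UBE2L6 failed the large follicle filter without HLO replicate 1, 2, 3 or 5, so its 0 of 12 cannot test its difference. UBE2L5 failed the small follicle filter without HSO replicate 1, 3 or 4 or LSO replicate 3, so such runs are not among its 11. The stage differences without LLO replicates 2 and 5 were added after the data were seen.

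Replicate numbers are shared between groups. Deviations of same-numbered samples correlated at -0.481 to 0.709 and above 0.1 in 10 of 14 pairs. Because this was not so in every pair, and no label says what a number marks, the samples were not treated as paired. The data hold a hint of pairing, as 15 of 28 samples correlated best with their own number and the 7 samples with the most UBE2C all carried number 1 or 5. With a replicate block 4 members had an unadjusted p under 0.05 in medium follicles (16.4% of all genes), 6 over all stages (15.1%) and 2 in the interaction (14.5%), and 0 passed after adjustment. UBE2C was among the 6, with a difference of 0.78 (limma adjusted p = 0.254).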
